A study of Mus musculus with 21 samples.

Results

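The genes described here encode the proteins that act just below the death receptors of the TNF receptor family: Tradd, Fadd, Ripk1, Ripk3, Casp8, Cflar, Mlkl, Bid and Xiap. They were chosen by name, as the probe sets whose annotated gene symbol is 1 of these 9 and no other. Of the 9 genes, 8 had such a probe set, and all 8 were among the 12446 genes bright enough to test. Ripk1, the kinase on which the pathway's branches meet, was not analysed here. The 8 genes had 23 of the 45101 probe sets on the array, and 16 of these were brighter than the array's median on 3 or more of the 15 arrays taken at 24 h. In cultured aortic smooth muscle cells, Bid, Mlkl, Casp8 and Cflar were higher after 24 h of TNF together with an antibody to the lymphotoxin beta receptor (LTBR), Bid and Cflar by either of the fits used and Mlkl and Casp8 when the array number was taken into account. Without the array number, the calls of Bid and Cflar were lost under equal array medians or with a gene's probe sets averaged. They were also lost without the combination array numbered 1 or 2. The rise of Cflar rests on 1 probe set. With the probe sets used for the tests, differences of Tradd, Fadd, Ripk3 and Xiap did not pass in either fit. A further probe set of Tradd passed after the combination when the array number was taken into account.

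The cells came from the aortas of 10 to 12 week old C57BL/6J males, without a genetic change named in the labels, and were grown in serum-containing medium. They received PBS alone (the control), TNF at 1 ng/ml, the antibody to LTBR at 10 µg/ml, or both agonists at these doses, each added in PBS. RNA was hybridised to 1-colour Affymetrix arrays, 21 in all: 4 arrays each for PBS, the antibody and TNF at 24 h and 3 for the combination, plus 1 array each for PBS, the antibody and TNF at 2 h and at 6 h. The labels number the 24 h arrays 0 to 3 and the combination 1 to 3; they do not say whether a number is a culture, an animal or a pool, so the p-values measure the spread between these arrays only.

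Binding of TNF to its first receptor assembles a complex on the adaptor Tradd, from which the cell either activates NF-kB and survives or forms a second complex that holds the adaptor Fadd and caspase-8. Caspase-8 activity in that complex leads to apoptosis, is held in check by its catalytically inactive relative cFLIP (Cflar), and is passed to mitochondria by cleavage of the BH3-only protein Bid. Where caspase-8 is inactive, the kinase Ripk3 phosphorylates the pseudokinase Mlkl, which breaks the plasma membrane in necroptosis. LTBR has no death domain and signals to both branches of NF-kB. Xiap blocks the caspases that execute apoptosis.

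Promoter windows of 4 genes are shown because these genes had the higher signals after the combination. They are taken from RefSeq (GRCm38.p6) and run from 250 bases before to 50 bases after an annotated transcription start, each written 5′ to 3′ on the gene's strand. The windows are Bid at chr6:120916775-120917074 on the minus strand, Mlkl at chr8:111338156-111338455 on the minus strand, Casp8 at chr1:58802252-58802551 on the plus strand and Cflar at chr1:58711241-58711540 on the plus strand. Capitals mark the letters that matched a motif.
Bid: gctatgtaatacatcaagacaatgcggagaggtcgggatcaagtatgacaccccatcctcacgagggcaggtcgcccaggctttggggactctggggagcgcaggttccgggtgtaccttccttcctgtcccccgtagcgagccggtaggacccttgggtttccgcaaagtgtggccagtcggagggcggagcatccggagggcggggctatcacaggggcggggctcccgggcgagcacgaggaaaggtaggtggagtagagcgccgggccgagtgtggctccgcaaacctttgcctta
Mlkl: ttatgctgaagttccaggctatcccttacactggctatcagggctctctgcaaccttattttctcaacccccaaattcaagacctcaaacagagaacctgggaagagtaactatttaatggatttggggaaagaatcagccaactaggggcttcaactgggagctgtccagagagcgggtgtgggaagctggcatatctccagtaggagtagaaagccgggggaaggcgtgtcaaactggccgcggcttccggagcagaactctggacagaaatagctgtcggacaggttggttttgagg
Casp8: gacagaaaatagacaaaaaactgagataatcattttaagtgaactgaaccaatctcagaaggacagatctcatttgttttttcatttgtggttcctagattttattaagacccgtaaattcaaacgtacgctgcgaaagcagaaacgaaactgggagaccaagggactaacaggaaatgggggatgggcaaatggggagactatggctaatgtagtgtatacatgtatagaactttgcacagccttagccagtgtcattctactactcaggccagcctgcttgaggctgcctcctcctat
Cflar: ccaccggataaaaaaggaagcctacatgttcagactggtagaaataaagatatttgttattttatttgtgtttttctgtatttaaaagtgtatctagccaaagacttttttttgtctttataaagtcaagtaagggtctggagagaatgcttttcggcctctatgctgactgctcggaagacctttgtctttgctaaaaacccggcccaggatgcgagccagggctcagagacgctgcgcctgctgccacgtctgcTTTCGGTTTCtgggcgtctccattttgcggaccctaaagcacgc

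The 4 windows differed in composition. Bid's held 63.3% G and C with 22 CpG dinucleotides, Mlkl's 51% with 7, Cflar's 45.0% with 12 and Casp8's 42.0% with 5, against medians of 52.7% and 7 over 32851 promoters. Both strands were searched for the NF-kB consensus, for GAAANNGAAA (the core of the interferon-stimulated response element) and for TTCNNNGAA (the STAT element), motifs that can overlap. The only match in the 4 windows was TTTCGGTTTC in Cflar, which is GAAANNGAAA on the minus strand, 6 to 15 bases after the start. That motif is found in 3.44% of all promoters, the NF-kB consensus in 8.46% and TTCNNNGAA in 8.3%, so its presence in 1 window is a description of these letters only. The windows of Casp8 and Mlkl lie within the annotated spans of their genes, and those of Bid and Cflar lie mostly within them. Windows at other starts were not used here. Cflar and Casp8 are near neighbours on chromosome 1, with 1 annotated gene, a non-coding RNA, between them.

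The smooth muscle identity of the cultures was checked with markers. Acta2, smooth muscle actin, gave 16442.3 to 19661.5 on the 24 h arrays, and all 10 smooth muscle markers were bright enough to test. The smooth muscle sum was 39895 to 43240 on the arrays numbered 0 and 34069 to 55950 on the others. Myh11, however, averaged 137.8 on the arrays numbered 0, near the array median, and 1805 on the others. Of the 10, only Tagln and Smtn averaged higher on the arrays numbered 0. The summed endothelial markers stood apart by number: their signal was 20435 to 21743 on the 3 arrays numbered 0 and 2146 to 4666 on the other 12. The combination has no array numbered 0. Much of that sum came from Emcn (mean 8890 on the arrays numbered 0, 511 on the others) and Pecam1 (5237 and 188). Eng was close (1625 and 1550), and only Kdr (223.2 and 266.1) and Cldn5 (53.1 and 72.9) averaged lower on the arrays numbered 0. The macrophage sum was 1177 to 1433 on the arrays numbered 0 and 1604 to 4999 on the others. Of the 10 listed macrophage markers 7 were bright enough to test, among them Csf1r (428.4 to 1303.6) and Lyz2 (235.9 to 1812.5). Ptprc (CD45) and Itgam were never above the array median. The range of the macrophage sum was 1433 to 4726 with PBS, 1177 to 3591 with the antibody, 1237 to 3949 with TNF and 1627 to 4999 with both. In RNA from a whole culture, fewer cells of a type and less RNA per cell cannot be told apart. After the combination 1 of 10 smooth muscle markers was lower than with PBS, and 6 were lower in a fit with the array number as a block. Of all genes, 2.46% passed in this comparison without the block and 19.5% with it, in either direction. Of the other markers, 0 of 9 endothelial and 0 of 7 macrophage markers passed in either fit (limma). At an unadjusted p under 0.05 there were 0 of each without the block, and 2 and 1 with it. The part of these markers in the results below was not tested; the changes of single genes called against PBS, and those between the combination and each agonist, are also given from the arrays numbered 1 to 3 alone.

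The comparison of the combination with PBS at 24 h asked which of the genes respond when both receptors are engaged. Bid and Cflar rose, by 1.98-fold and 1.33-fold, in limma's fit of the 15 arrays (adjusted p = 0.0133 and 0.018, Benjamini-Hochberg over all genes). These 2 of 8 genes stand beside 2.46% of all genes that passed in this comparison. Arrays with the same number deviated together, and with the number as a block Mlkl and Casp8 rose as well, which gave 4 of 8 genes beside 19.5% of all genes. The median log2 change of the 8 genes was 0.43, against 0.00 for all genes tested. The genes were chosen with earlier results of these data known, so these medians are a description only.

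**Figure D1:**
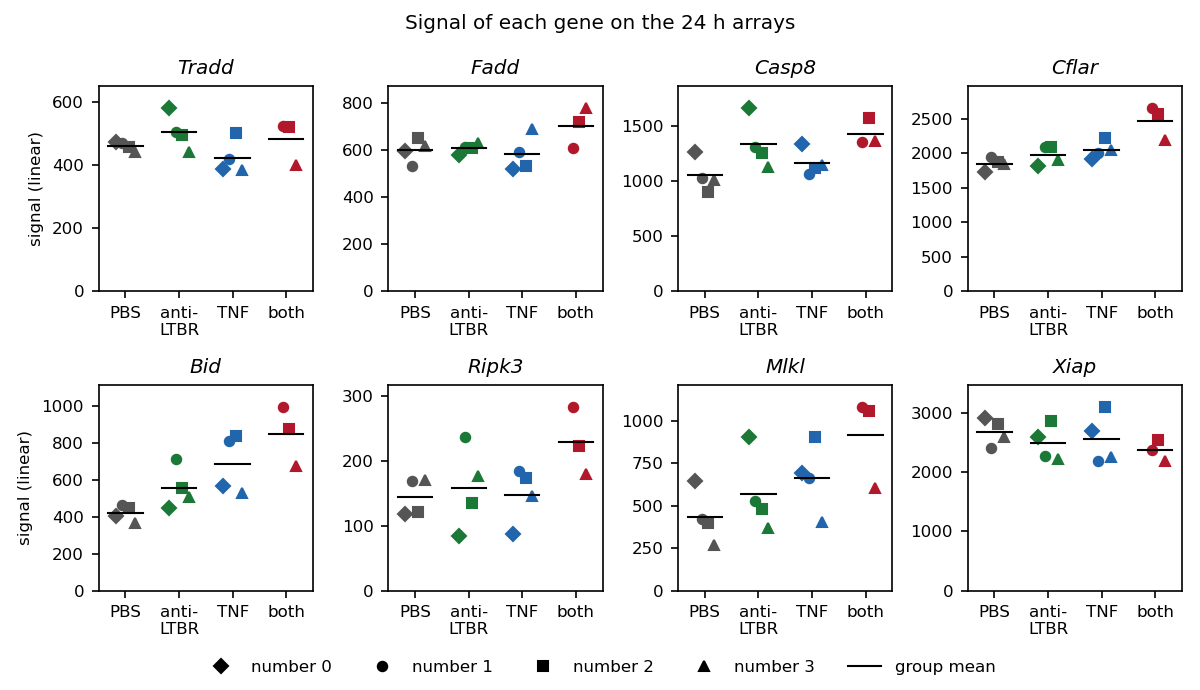
Linear signal (y axis) of the 8 genes on the 15 arrays at 24 h, by treatment (x axis): PBS, the antibody to LTBR, TNF, or both. Each symbol is 1 array, its shape gives the array number, and the line is the group mean; for Bid the 3 arrays with both agonists (675.4 to 994.0) lie above the 4 PBS arrays (368.3 to 461.2), whereas for Tradd they lie both above and below the PBS arrays.

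Tradd, the adaptor that the first TNF receptor binds, did not pass in any comparison with the probe set used for the tests. The PBS arrays numbered 0 to 3 gave 472.2, 470.6, 454.9 and 439.1, and the combination arrays numbered 1 to 3 gave 521.9, 520.2 and 400.7. The groups overlap, and the combination held both the highest and the lowest of these 7 values. The log2 difference was 0.06 ± 0.13 (SE; adjusted p = 0.948, limma). TNF alone gave 387.3, 417.6, 502.0 and 384.3, and the antibody alone 579.9, 503.8, 495.5 and 440.2.

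Fadd, which carries caspase-8 to the complex through its death effector domain, gave 596.6, 533.3, 653.4 and 617.3 with PBS and 610.2, 719.2 and 780.0 with both agonists. The combination arrays numbered 2 and 3 were above all PBS arrays, and the array numbered 1 lay among them. The log2 difference was 0.22 ± 0.12 without the block (adjusted p = 0.511) and 0.20 ± 0.09 with it (adjusted p = 0.168, limma). It missed the threshold in both fits. With TNF alone Fadd gave 519.2 to 690.5 and with the antibody alone 581.4 to 629.1, ranges that overlap that of PBS.

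Casp8, the initiator caspase, gave 1270.5, 1027.8, 902.9 and 1014.2 with PBS and 1354.1, 1575.8 and 1365.3 with both agonists. All 3 combination arrays were above all 4 PBS arrays, of which the array numbered 0 was the highest. The log2 difference was 0.45 ± 0.14 without the block (adjusted p = 0.135) and 0.53 ± 0.08 with it (adjusted p = 0.000299, limma). On the arrays numbered 1 to 3 alone it was 0.54 and passed without a block (adjusted p = 0.0107).

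Cflar, whose product competes with caspase-8 for Fadd, rose to a mean signal of 2469 ± 245 (SD, n = 3) from 1846 ± 87.2 (n = 4). The PBS arrays gave 1732.5, 1942.3, 1870.4 and 1840.1, and the combination arrays 2653.6, 2561.5 and 2190.6. The groups do not overlap, and the lowest combination array was the one numbered 3. The log2 change was 0.41 ± 0.09 without the block and 0.38 with it (adjusted p = 0.018 and 0.000277, limma); on the arrays numbered 1 to 3 alone it was 0.38 (adjusted p = 0.0423).

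Bid, which links caspase-8 to the mitochondria, had the smallest p-value of the 8 genes. Its PBS arrays gave 403.7, 461.2, 446.5 and 368.3, and its combination arrays 994.0, 874.1 and 675.4. The lowest combination array was above the highest PBS array, and each of the 3 same-number pairs was higher by 0.86 to 1.09 on the log2 scale. The change was 0.98 ± 0.19 (adjusted p = 0.0133) without the block and 0.92 ± 0.10 (adjusted p = 1.96e-05) with it, and 0.97 on the arrays numbered 1 to 3 alone (adjusted p = 0.0291, limma). Without the combination array numbered 1 the unblocked adjusted p of Bid was 0.0858 and that of Cflar 0.107; without the one numbered 2 they were 0.0682 and 0.101. Scaling the arrays to equal medians, without the block, also put both adjusted p-values above 0.05 (adjusted p = 0.095 and 0.365), as did averaging a gene's probe sets (adjusted p = 0.0535 and 0.346); with the block both passed under equal medians.

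Ripk3, the kinase of necroptosis, had signals near the array median and a wide spread. PBS gave 118.5, 168.3, 120.7 and 171.0, and the combination 282.4, 223.3 and 180.1. The combination arrays were all above the PBS arrays, by a narrow margin for the one numbered 3. The log2 difference was 0.62 ± 0.31 without the block (adjusted p = 0.489) and 0.44 ± 0.19 with it (adjusted p = 0.127, limma). It passed in neither fit. The signal was 84.4 to 118.5 on the arrays numbered 0 and 120.7 to 282.4 on the others, so part of its spread lies between numbers.

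Mlkl, the executioner of necroptosis, also varied by number, with its highest PBS signal on the array numbered 0. Its PBS arrays gave 648.4, 424.2, 400.1 and 270.4, and its combination arrays 1081.6, 1059.5 and 607.8. The groups overlap, since the PBS array numbered 0 was above the combination array numbered 3, yet within numbers 1, 2 and 3 the combination was higher by 1.14 to 1.38 on the log2 scale. The change was 1.07 ± 0.34 (2.11-fold, adjusted p = 0.16) without the block and 1.24 ± 0.16 (adjusted p = 0.0001) with it. On the arrays numbered 1 to 3 alone it was 1.28, just short of the threshold without the block (adjusted p = 0.0514) and past it with the block (adjusted p = 4e-05, limma).

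Xiap, the direct inhibitor of the effector caspases, gave 2912.4, 2405.4, 2807.1 and 2582.3 with PBS and 2364.7, 2545.0 and 2185.0 with both agonists. The array numbered 2 overlapped the PBS range, and the other two were below it. Each of the 3 same-number pairs was lower in the combination, by 0.02 to 0.24 on the log2 scale. The difference was -0.18 ± 0.13 without the block (adjusted p = 0.704) and -0.15 ± 0.07 with it (adjusted p = 0.151, limma). It passed in neither fit.

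TNF alone at 24 h was compared with PBS. In the fit without the block 0 of the 8 genes passed, beside 0.337% of all genes, and at an unadjusted p under 0.05 there was 1 of the 8 and 586 of all genes. With the number as a block Bid and Mlkl rose, 2 of 8 beside 5.94% of all genes. Bid gave 567.4, 812.7, 836.3 and 529.5 with TNF, each above every PBS array, a change of 0.67 ± 0.18 on the log2 scale (adjusted p = 0.274, and 0.000572 with the block; limma). Mlkl gave 692.0, 664.0, 907.4 and 403.6; all 4 same-number pairs were higher with TNF, by 0.09 to 1.16, and the lowest was the pair numbered 0. Its change was 0.61 ± 0.32 (adjusted p = 1, and 0.0255 with the block). Leaving out any 1 of 6 arrays (PBS or TNF, numbered 1, 2 or 3) put Mlkl's blocked adjusted p at 0.06 to 0.0832. On the numbers 1 to 3 alone, with the block, the changes were 0.74 for Bid (adjusted p = 0.00147) and 0.79 for Mlkl (adjusted p = 0.00492). Cflar with TNF gave 1914.1, 2008.4, 2214.9 and 2041.5, a difference of 0.15 ± 0.08 that passed in neither fit. Casp8 gave 1337.1, 1071.2, 1122.0 and 1151.3, a difference of 0.16 ± 0.13 that likewise passed in neither.

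The antibody alone at 24 h was compared with PBS in the same way. Without the block 0 of the 8 genes passed, beside 0.129% of all genes, with 1 of the 8 and 536 of all genes at an unadjusted p under 0.05. With the block Casp8 and Bid rose, 2 of 8 beside 4.76% of all genes. Casp8 gave 1667.8, 1315.3, 1258.8 and 1132.1 with the antibody, above the PBS array of the same number in all 4 pairs. The Casp8 change was 0.34 ± 0.13 on the log2 scale (adjusted p = 0.949, and 0.0144 with the block; limma). Bid gave 446.2, 713.6, 556.6 and 505.2, also higher in all 4 pairs, by 0.14 to 0.62, a change of 0.38 ± 0.18 (adjusted p = 0.999, and 0.0269 with the block). Mlkl gave 906.3, 530.1, 482.2 and 368.3, again higher in 4 of 4 pairs, but its difference of 0.37 ± 0.32 passed in neither fit (adjusted p = 0.182 with the block). Cflar gave 1811.3, 2089.9, 2087.6 and 1900.0, a difference of 0.09 ± 0.08 that passed in neither. The blocked call of Casp8 was lost without the antibody array numbered 0 (adjusted p = 0.0712) or 1 (adjusted p = 0.0661). Bid's was lost without the PBS array numbered 1 (adjusted p = 0.0987) or 2 (adjusted p = 0.0765), or the antibody array numbered 1 (adjusted p = 0.111) or 3 (adjusted p = 0.0987). On the numbers 1 to 3 alone, with the block, Bid's change with the antibody was 0.46 (adjusted p = 0.0355) and that of Casp8 0.33 (adjusted p = 0.0833).

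**Figure D2:**
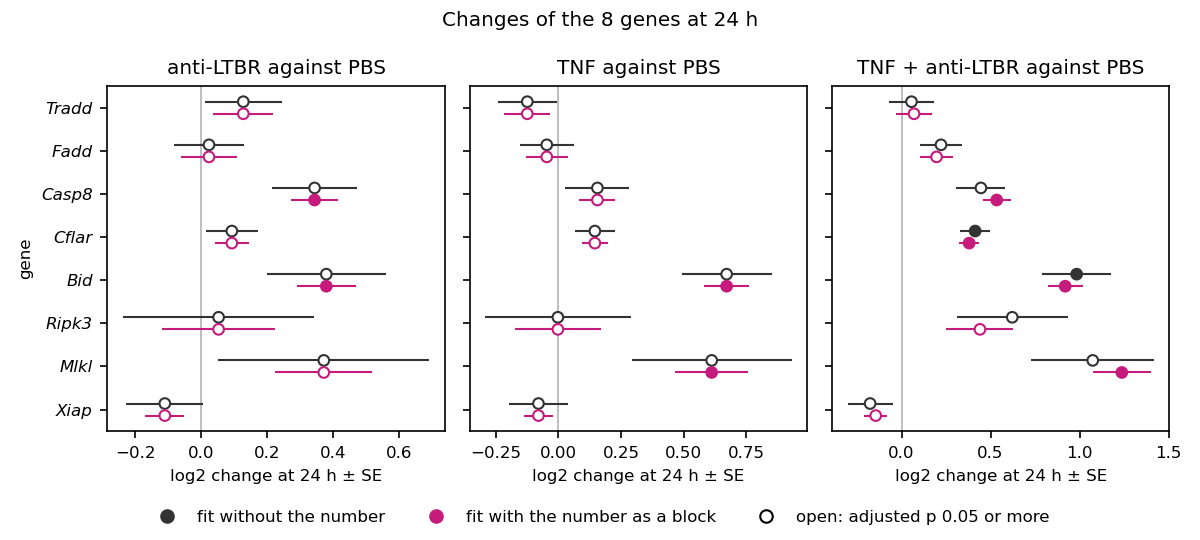
Log2 change ± SE (x axis) of each of the 8 genes (y axis) at 24 h against PBS, for the antibody, TNF and both, in limma's fits without (grey) and with (magenta) the array number as a block. Filled points have an adjusted p under 0.05: Bid and Cflar in both fits after the combination, Mlkl and Casp8 there with the block only; the x axes of the panels differ in range.

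The combination was then set against each agonist alone, to ask what the second agonist added. Against the antibody, 0 of 8 genes passed without the block, beside 0.362% of all genes, with 2 of the 8 and 574 of all genes at an unadjusted p under 0.05. With the block Bid, Mlkl and Cflar were higher in the combination, by 0.54, 0.87 and 0.29 on the log2 scale (adjusted p = 0.00518, 0.00587 and 0.00765, limma), 3 of 8 beside 5.63% of all genes. Against TNF, 0 of 8 passed without the block, beside 0.0482% of all genes, with 2 of the 8 and 591 of all genes at an unadjusted p under 0.05. With the block Casp8, Cflar and Mlkl were higher, by 0.38, 0.23 and 0.63 (adjusted p = 0.0122, 0.0233 and 0.0345), 3 of 8 beside 6.77% of all genes. Bid was higher in the combination than with TNF in 3 of 3 pairs, but its blocked difference of 0.25 did not pass (adjusted p = 0.162). These blocked counts depend on single arrays: against TNF, 0 of the 8 genes passed without the TNF array numbered 1 or the combination array numbered 2, and 1 without the combination array numbered 1. With the block on the numbers 1 to 3 alone, Casp8 passed against TNF (0.36, adjusted p = 0.0411), while Cflar (0.24, adjusted p = 0.0582) and Mlkl (0.50, adjusted p = 0.0502) did not. With the block and equal array medians, Casp8 again passed (adjusted p = 0.0316) and Cflar and Mlkl did not (adjusted p = 0.153 and 0.0702). Against the antibody, Bid, Mlkl and Cflar passed on the numbers 1 to 3 alone with the block, by 0.51, 0.95 and 0.28 (adjusted p = 0.0146, 0.00196 and 0.0296), but Cflar did not under equal medians (adjusted p = 0.116).

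The agonists were also set against each other. Of the 8 genes 0 passed without the block, beside 0.0161% of all genes, and 0 of 8 with it, beside 0.731%; at an unadjusted p under 0.05 there was 1 of 8 and 242 of all genes without the block, and 3 of 8 and 1422 with it. The largest difference of the 8 was in Bid, which was higher with TNF in 4 of 4 pairs by 0.29 ± 0.18 on the log2 scale (adjusted p = 0.191 with the block, limma). Whether the agonists combined other than additively on the log2 scale was tested as an interaction. None of the 8 genes passed, beside 0% of all genes without the block and 0.0161% with it, and 0 of the 8 had an unadjusted p under 0.05 in either fit, against 165 of all genes without the block and 1197 with it. The interaction of Cflar was 0.17 ± 0.12 and that of Ripk3 0.57 ± 0.43, both ± SE.

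The early times rest on 1 array a group, numbered 0, so they compare those arrays and carry no test. At 24 h the arrays numbered 0 were those with the high endothelial sum, 20435 to 21743. The part of the endothelial markers in the early differences was not tested. With TNF, Bid gave 1062.5 at 2 h and 1050.5 at 6 h, against 410.7 and 341.8 with PBS and 374.4 and 387.2 with the antibody. That is 2.55-fold at 2 h and 3.01-fold at 6 h, while at 24 h the TNF and PBS arrays numbered 0 gave 567.4 and 403.7, a log2 difference of 0.48. Bid was the 1 gene of the 8 past 2-fold with TNF at 2 h, beside 2.5% of all genes, and at 6 h, beside 3.08%. Its other probe sets moved in the same direction with TNF, by 0.89 and 1.10 on the log2 scale at 2 h and by 1.23 and 1.66 at 6 h. With the antibody 0 of the 8 genes were past 2-fold at 2 h, beside 1.5% of all genes, or at 6 h, beside 1.74%.

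Mlkl gave 675.2 with TNF, 566.0 with the antibody and 521.8 with PBS at 2 h. At 6 h these signals were 916.1, 767.8 and 556.9, so both agonists gave more than PBS, by 0.71 and 0.46 on the log2 scale, without reaching 2-fold. Cflar gave 1845.5 with TNF against 1631.4 with PBS at 2 h, and 2116.5 against 1749.3 at 6 h, when the antibody array gave 1748.7. Casp8 differed by 0.22 with TNF and by 0.23 with the antibody at 6 h. Ripk3 gave 78.8 with TNF against 124.4 with PBS at 6 h, the only one of the 8 genes more than 1.5-fold lower at that time. With the probe sets used for the tests, Tradd, Fadd and Xiap differed from PBS by at most 0.31 on the log2 scale in all 4 early comparisons. The most was Fadd with TNF at 6 h. Further passing probe sets differed by more: with TNF at 2 h, Fadd's second probe set by 0.85 and a further probe set of Tradd by -0.55.

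**Figure D3:**
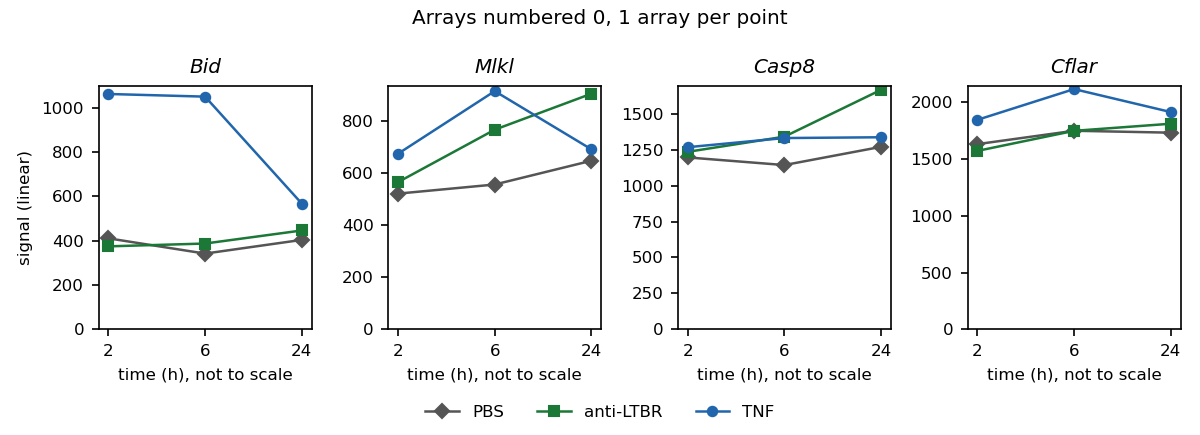
Linear signal (y axis) of Bid, Mlkl, Casp8 and Cflar on the arrays numbered 0 at 2, 6 and 24 h (x axis, evenly spaced and not to scale) with PBS, the antibody to LTBR or TNF, 1 array per point. Bid with TNF is at 1062.5, 1050.5 and 567.4, while with PBS it is between 341.8 and 410.7.

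Several genes had more than 1 probe set, and these did not all give the same result. For Bid, the 2 further probe sets were higher in the combination than with PBS by 1.27 and 0.78 on the log2 scale; in a fit of every probe set neither passed without the block (adjusted p = 0.0827 and 0.42), and the first passed with it (adjusted p = 0.00314, limma). Cflar's second passing probe set differed by 0.19 (adjusted p = 0.911, and 0.257 with the block), and 3 others were too low to test, so the rise of Cflar rests on 1 probe set. Casp8, Mlkl and Ripk3 had 1 probe set each. Of Tradd's 2 further probe sets, 1 differed by 0.31 and passed with the block (adjusted p = 0.0491), whereas the other differed by -0.02. Xiap's 2 further passing probe sets lay lower in the combination, by -0.33 and -0.59, and passed in neither fit (adjusted p = 0.0866 and 0.0755 with the block), and its 4 others were too low to test. Fadd's second probe set, with signals of 21.3 to 317.2 at 24 h, differed by -0.22, opposite in sign to the first.

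The pathway around these genes was described with 5 lists. Of 26 listed regulators of ubiquitin and kinase signalling at the receptor, 23 were tested, and 5 rose and 0 fell after the combination (12 rose and 1 fell with the block), beside 2.46% of all genes called without the block and 19.5% with it. Birc3 and Birc2, ubiquitin ligases that direct the complex to survival, rose by 2.43 ± 0.22 and 1.46 ± 0.19 on the log2 scale (adjusted p = 2.63e-05 and 0.00076, limma). Birc3's mean signal was 382.9 ± 68.8 (SD, n = 4) with PBS, 887.9 ± 97.2 with the antibody, 828.6 ± 214 with TNF and 2133 ± 558 (n = 3) with both. Tnfaip3 (A20), which edits ubiquitin chains, rose 4-fold and Tnip1, its binding partner, 2.22-fold (adjusted p = 0.00102 and 0.000238). Map3k5, the kinase ASK1, was the gene that fell with the block, by 1.16 on the log2 scale. The list's median log2 change was 0.28, against 0.00 for all genes, and the list too was chosen with earlier results of these data known.

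Of the 14 listed ligands and receptors, 9 were tested, and 1 rose and 0 fell after the combination (3 rose with the block), beside the same 2.46% and 19.5% of all genes. Tnfrsf1b, the second TNF receptor, rose by 1.07 ± 0.23 (adjusted p = 0.0215, limma). Fas, the receptor of Fas ligand, and Tnfrsf10b, the mouse TRAIL receptor, were higher by 0.73 and 0.47 (adjusted p = 0.125 each, limma). With the block they rose, by 0.60 and 0.44 (adjusted p = 0.00127 and 0.042). Tnfrsf12a, the receptor of TWEAK, differed by -0.25 (adjusted p = 0.877).

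The remaining lists had 0, 1 and 1 calls without the block and 4 of 18, 2 of 8 and 4 of 15 with it, beside the same 2.46% and 19.5% of all genes. In the mitochondrial death pathway 18 of 19 genes were tested and 0 passed after the combination without the block, with 5 at an unadjusted p under 0.05 (limma). With the block Htra2 and Bak1 rose, by 0.43 and 0.42, and Mcl1 and Endog fell, by 0.13 and 0.34 on the log2 scale. Mcl1 protects mitochondria, Bak1 forms pores in their outer membrane, and Htra2 and Endog are proteins that mitochondria release. Of 10 effector caspases with their targets and inhibitors 8 were tested, and 1 rose: Xaf1, an antagonist of Xiap, by 1.83 ± 0.43 (adjusted p = 0.0342, limma). Parp1, a caspase target, rose with the block as well, by 0.19, while Casp9 and Dffb differed by -0.24 and -0.14 and passed in neither fit. Of 19 genes of necroptosis and caspase-8 partners 15 were tested, and the 1 called without the block was Zbp1, a sensor of Z-form nucleic acids that binds Ripk3. Zbp1 was above the array median on 0 of 4 PBS, 0 of 4 antibody, 2 of 4 TNF and 3 of 3 combination arrays, so it entered the test only through the groups where it is high, and its call is given as a description. Its mean signal was 21.1 ± 20.4 with PBS, 32.1 ± 24.7 with the antibody, 147.3 ± 80.3 with TNF and 298.0 ± 33.7 with both. No fold change is given, since the PBS signal is low and its ratio depends on the constant added before taking log2. Ppm1b, a phosphatase, Pea15a and Dap fell with the block, by 0.27, 0.23 and 0.17, whereas Faf1 and Daxx differed by -0.16 and 0.21 and passed in neither fit.

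With the single agonists, 3 of the 23 ubiquitin and kinase regulators rose with the antibody (Traf2, Birc3 and Birc2) and 1 with TNF (Birc3), beside 0.129% and 0.337% of all genes. With the block 7 rose and 1 fell with each, beside 4.76% and 5.94% of all genes. In the other 4 lists 0 of 50 tested genes passed with either agonist without the block (limma; at an unadjusted p under 0.05, 1 with the antibody and 2 with TNF). With it, Fas and Xaf1 rose with TNF, by 0.42 and 1.03, Zbp1 was called with TNF under the limit given above, and Parp1 with the antibody, by 0.20. These comparisons share the PBS arrays.

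The genes whose signals followed Bid most closely over the 15 arrays at 24 h were Psmd10, Rbm43, Ccl7, Relb and Snx10, with Pearson r of 0.97, 0.93, 0.92, 0.92 and 0.92 on the log2 scale. This is a description of 15 arrays that share treatments and numbers. Of these, Relb encodes the NF-kB subunit of the non-canonical branch and Ccl7 a monocyte chemokine, and their log2 changes after the combination were 2.09 and 5.93. Psmd10, a proteasome chaperone, changed by 0.82.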

How the data were processed

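Gene signals were compared between treatments of cultured mouse aortic smooth muscle cells. The authors' deposited intensity values are on a linear scale and come from GCOS 1.4, per the submitters' processing notes. Each array has a trimmed mean of 500.0; how background was corrected is not stated. Array medians were 106.8 to 139.0, and the number of arrays limits the precision. Signals were used as deposited, as log2(signal + 10.2), the 10th percentile at 24 h. Genes above the array median on at least 3 of 15 arrays were tested with limma 3.58.1 (R 4.3.3; variance trend, tested on simulated data), with the highest-mean probe set of a gene and Benjamini-Hochberg adjustment over 12446 genes; a call is an adjusted p under 0.05, or 2-fold for single arrays. The numbers pair the arrays: 21 same-number pairs correlated at 0.46 to 0.81, 63 others at -0.58 to 0.22, so values with the number as a block stand beside results they change. Named genes were the 9 genes, up to 4 of each pathway list by smallest adjusted p after the combination, and the 5 genes most like Bid; Map3k5, Pea15a, Dap and Traf2 were named after their values were seen. Members and lists were chosen with earlier results of these data known. Alternatives were other scalings, constants, filters and probe set rules, and leaving out each array. Lymphocyte markers summed to 542 to 1033 and adventitial fibroblast markers to 8620 to 16773 at 24 h. After the combination 0 of 2 and 0 of 6 passed (0 and 2 at an unadjusted p under 0.05), beside 2.46% of all genes. With the block 0 and 3 passed, beside 19.5%.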

Additional observations from a re-analysis of the deposited data

Results flagged for a closer look

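Among 48 groups of 4 arrays (16 probe sets in 3 groups at 24 h), 3 held 1 array far from the other 3, and chance gives about 1 in 20 groups. For the second probe set of Cflar, the antibody array numbered 1 was low at 258.7, against 338.0 to 349.0. For the second probe set of Fadd, the TNF array numbered 3 was high at 250.5, against 82.5 to 110.8. For a further probe set of Xiap, the TNF array numbered 0 was high at 611.7, against 471.2 to 492.4. None of these probe sets is the one whose values the tests of Cflar, Fadd and Xiap used.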

How the results depend on the processing

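After the combination, 2 of the 8 genes passed against PBS; the count was 4 with the number as a replicate block, also with equal array medians and with numbers 1 to 3 alone, 5 with the block and every probe set, and 0 with equal medians without the block (Bid 0.99, adjusted p = 0.095; Cflar 0.42, adjusted p = 0.365) or with a gene's probe sets averaged (Bid adjusted p = 0.0535; Cflar 0.30, adjusted p = 0.346). It was 2 with quantile normalization, constants of 1 or 50, either other filter, no variance trend or every probe set, and 3 with numbers 1 to 3 alone. The cause of the losses was not tested. Leaving out each array gave 0 to 2 without the block and 4 every time with it. For the other comparisons with a changed count, the fit without the block gave 0. With the block, TNF and the antibody each gave 2 against PBS, and the combination 3 against either agonist; leaving out an array then gave, in the same order, 1 to 2, 0 to 2, 2 to 3 (against the antibody) and 0 to 3 (against TNF). With the block and equal medians the counts were 2, 2, 2 and 1, with the block and numbers 1 to 3 alone 2, 1, 3 and 1, and with the block and every probe set 2, 2, 3 and 3. The block changed no other call of the 8 genes. The block with leave-one-out and with every probe set were chosen after seeing the data. At 6 h with TNF, 3 genes were past 1.5-fold, against 1 past 2-fold. The values that reversed were changes of Tradd, Fadd and Ripk3 that did not pass. For TNF against PBS, Tradd was 0.0485 with probe sets averaged, and Fadd 0.00393 with numbers 1 to 3 alone. Ripk3 there was 0.041 with equal medians, with or without the block, 0.129 with numbers 1 to 3 alone, 0.0321 with quantile normalization and 0.00431 with a constant of 50. Leaving out 1 array, with or without the block, gave -0.00729 to 0.179 for Tradd after the combination, -0.0306 to 0.0722 and -0.129 to 0.017 for Fadd with the antibody and with TNF, and -0.158 to 0.301 and -0.12 to 0.212 for Ripk3. The number of arrays, and signals near the array median for Ripk3, limit what could be detected.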
